A study of Mus musculus with 5 samples.

Results

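The genes of MHC class II antigen presentation were followed in whole-uterus RNA of pseudopregnant mice. The set held 10 genes of the 28666 in the count table and was taken by gene name, without use of their values: the classical chains H2-Aa, H2-Ab1 and H2-Eb1, the H2-DM chains H2-DMa, H2-DMb1 and H2-DMb2, the H2-DO chains H2-Oa and H2-Ob, the invariant chain gene Cd74 and the transactivator gene Ciita. All 10 were found and had enough counts to be tested. The study asked how seminal plasma (SP) from older males affects the uterus before implantation. ICR females, an outbred stock, aged 6 to 8 weeks, were caged with vasectomized C57BL/6 males, whose ejaculate carries seminal plasma without sperm. The males were 12 to 14 weeks old in the young-SP group (replicates 1, 2 and 4, n = 3) and 12 to 18 months old in the aged-SP group (replicates 1 and 4, n = 2). No embryo was present in either group, and no female carried an engineered allele as far as the labels and methods state. The uteri were taken 3.5 days after caging by the labels and at 3.0 dpc (days post coitum) by the methods. The labels give no number of animals per library, so p-values measure the spread between these libraries. The study excluded a young-SP sample that it judged an outlier in hierarchical clustering. That choice was made on the values, so the spread between the kept libraries may be understated. Whole uterus mixes epithelium, stroma, muscle and leukocytes, and in such bulk RNA a change in the number of cells of a type cannot be told apart from a change in RNA per cell.

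MHC class II molecules are pairs of an alpha and a beta chain that carry peptides from engulfed or secreted proteins to the surface of dendritic cells, macrophages and B cells, where CD4+ T cells read them. In the mouse the classical pairs are H2-A (H2-Aa with H2-Ab1) and H2-E (the chain of the H2-Ea gene with H2-Eb1). The invariant chain, encoded by Cd74, guides new pairs to endosomes and blocks their groove until proteases cut it down. H2-DM then removes the remaining fragment and lets peptides bind, and H2-DO restrains H2-DM, mainly in B cells. CIITA, encoded by Ciita, switches on the genes of the classical chains, the invariant chain and H2-DM. It does not bind DNA itself but is held at promoters by factors on the X box (the RFX complex and CREB) and the Y box (NF-Y). In the uterus class II molecules mark antigen-presenting cells, and the study used MHC II protein as a marker of mature dendritic cells.

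Promoter stretches that hold letters of the X box or Y box, where the factors that bind CIITA sit, are shown first. Sequences are from RefSeq on GRCm38.p6, 5′ to 3′ on the strand of the gene. Windows of 300 bases (250 of them before the start of transcription) were searched for 7 of the members. H2-Ab1, Cd74 and Ciita were not among them. The Y box letters TGATTGG were present on the strand of the gene in 6 of these 7 genes and in 7.82% of all 32851 windows, with both strands searched. The X box was searched as AACNNATGATG, the letters shared by the members that hold ATGATG in the 40 bases before the Y box, so that their presence in those members is no finding. They occurred in 4 of the 7 genes, H2-Eb1, H2-DMb1, H2-DMb2 and H2-Ob, and in 0.137% of all windows. The 2 motifs did not overlap, and the X box began 26 to 29 bases before the Y box in these 4 genes. The 2 windows listed for H2-DMa held neither and begin at starts upstream of the position that the count table gives for this gene. Capitals mark the X box, where its letters were found, and the Y box. The first 3 stretches belong to classical chains and to H2-Ob.
H2-Aa (chr17:34287862-34287926, minus strand): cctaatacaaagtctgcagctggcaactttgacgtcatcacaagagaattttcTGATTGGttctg
H2-Eb1 (chr17:34305753-34305817, plus strand): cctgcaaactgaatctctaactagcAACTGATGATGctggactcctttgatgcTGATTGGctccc
H2-Ob (chr17:34238793-34238857, plus strand): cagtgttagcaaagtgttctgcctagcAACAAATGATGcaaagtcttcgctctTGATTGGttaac
The next 2 belong to the neighbouring H2-DM beta genes, whose ratio to each other moved most between libraries among the H2-DM chains. Both stretches lie inside the positions that the count table gives for these genes, not before them. For H2-DMb1 only the stretch around the X box is given.
H2-DMb2 (chr17:34145104-34145168, plus strand): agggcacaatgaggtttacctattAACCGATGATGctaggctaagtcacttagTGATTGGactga
H2-DMb1 (chr17:34153094-34153123, plus strand): ctagtAACTGATGATGctaggctgattcac

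Total counts lay between 15071914 and 16728601 per library. Values in CPM are counts scaled to the library total with TMM factors and serve to compare libraries. FPKM values are those deposited by the authors, divided by gene length, and serve to compare genes. The groups were compared with edgeR's two-sided quasi-likelihood test over the 17013 genes with enough counts, with Benjamini-Hochberg adjustment. A gene was called at an adjusted p under 0.05 and a log2 fold change (aged-SP over young-SP) over 1 in size. Over all genes the number of calls depended on single libraries: without young-SP replicate 1 edgeR called 578 genes in place of 25, and without aged-SP replicate 1 it called 1. Where leaving out a library turned the direction of a member, the value without it is given.

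None of the 10 genes was called, 0 higher and 0 lower in aged-SP. The share of all tested genes called by edgeR was 0.147% (25 of 17013), with 0.0823% higher and 0.0647% lower. With the DESeq2 Wald test, the tool of the study, 0 of the 10 were called, against 3.74% of all genes with an adjusted p, and limma-voom also called 0, against 0.159%. At an unadjusted p under 0.05 there were again 0 of 10 by each tool, against 19.0% (edgeR), 19.5% (DESeq2) and 18.5% (limma-voom) of all tested genes. The smallest adjusted p was 0.372 with edgeR (H2-DMb1) and 0.282 with DESeq2. The median log2 fold change of the 10 was -0.063 (4 above and 6 below 0), against 0.0072 over all tested genes, of which 49.1% were below 0. Without young-SP replicate 1, where H2-Oa could not be tested, the median of the other 9 was 0.14, against -0.059 for these 9 with all libraries. Aged-SP and young-SP values were fully separate in 2 of the 10, H2-DMb2 and H2-Ob, against 38.8% of all tested genes. With 2 and 3 libraries the intervals remained wide, and a difference of 2-fold either way lay outside the 95% interval for H2-Ab1, H2-DMa, Cd74 and Ciita alone.

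**Figure D1:**
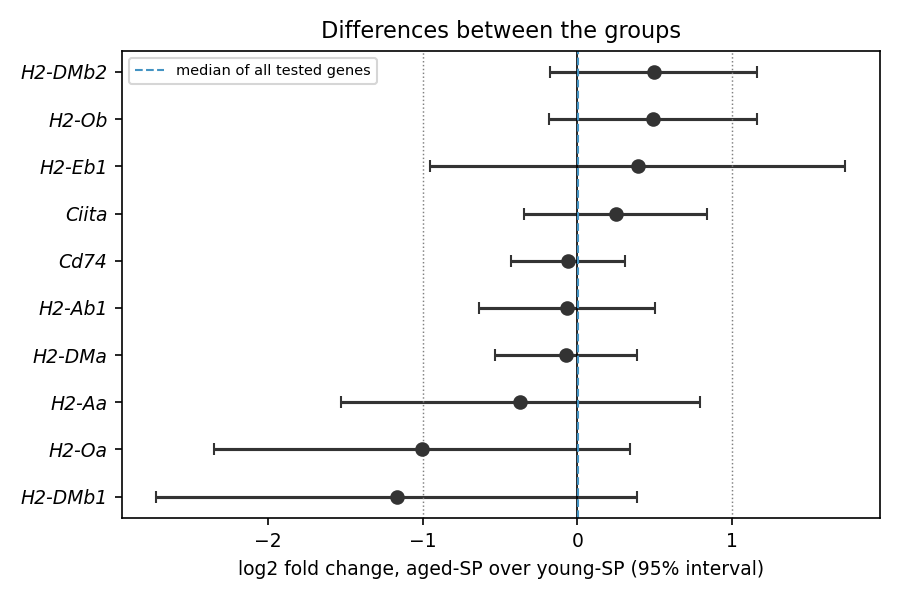
Fitted log2 fold change (aged-SP over young-SP, edgeR) of each gene, with its 95% interval as a bar, 2 aged-SP and 3 young-SP libraries. Dotted lines mark a log2 fold change of 1 in either direction, the dashed line the median of all tested genes (0.0072), and all 10 intervals hold 0.

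Levels differed widely from gene to gene, and 4 of the 10 had a mean over 20 FPKM. In FPKM, Cd74 was the highest at a mean of 211 over the 5 libraries (range 187 to 249). The classical chains followed, with H2-Eb1 at 56.9 (25.05 to 85.9), H2-Ab1 at 37.0 (29.2 to 48.0) and H2-Aa at 36.7 (21.9 to 63.8). These 3 overlapped one another across libraries, so that their order is not fixed. The H2-DM chains were lower, with H2-DMa at 9.05 (7.80 to 10.5), H2-DMb1 at 5.23 (2.32 to 9.49) and H2-DMb2 at 2.96 (1.90 to 3.95). Ciita was at 2.08 (1.45 to 2.53). H2-Ob, at 1.10 (0.768 to 1.46), and H2-Oa, at 0.538 (0.227 to 0.808), were the lowest. Cd74 was above every other member, and H2-DMa above Ciita and both H2-DO chains, in all 5 libraries.

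**Figure D2:**
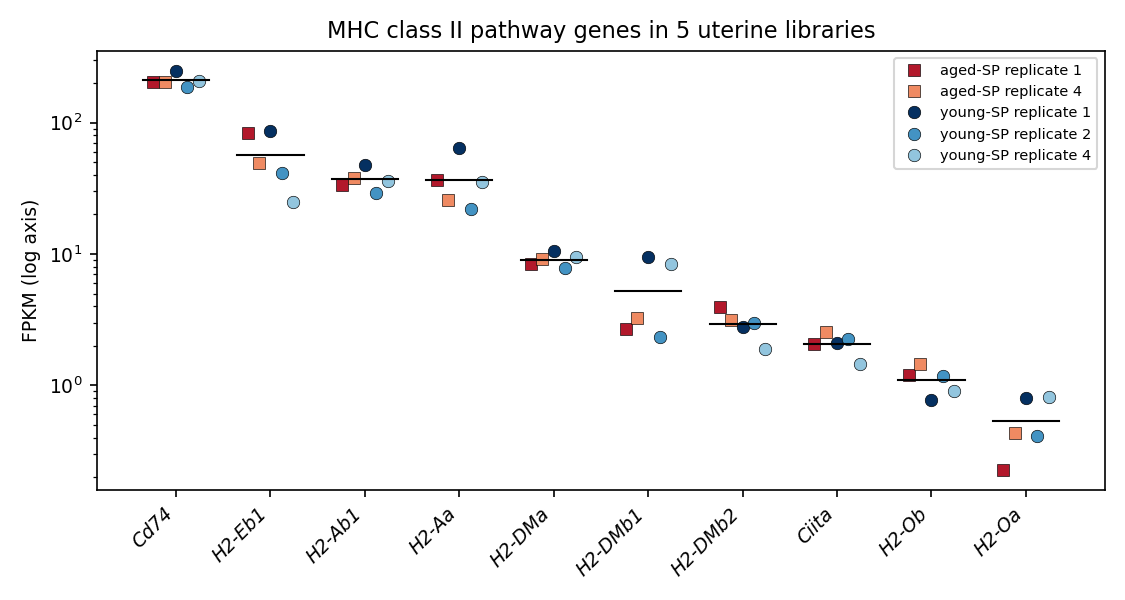
FPKM (log axis) of the 10 genes in each library, squares for the 2 aged-SP and circles for the 3 young-SP libraries, with a line at the mean of the 5. Cd74 lies highest (187 to 249) and H2-Oa has the lowest mean (range 0.227 to 0.808). In young-SP replicate 1 H2-Ob (0.768) lies below H2-Oa (0.803). H2-DMb1 splits into 2 high young-SP libraries and 3 low ones.

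Cd74 (chromosome 18, 60803848 to 60812646) was the steadiest member. Its level was 290.4 CPM in both aged-SP replicate 1 and replicate 4, and 353.6, 258.7 and 295.5 CPM in young-SP replicates 1, 2 and 4. The aged-SP libraries lay inside the young-SP range. On the log2 scale the fold change was -0.059 (95% interval -0.43 to 0.31, edgeR adjusted p = 0.862). The highest library had 1.37 times the CPM of the lowest, a smaller ratio than in most genes: 35.9% of the tested genes had a smaller one. Without young-SP replicate 1 the log2 fold change was 0.055.

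Among the classical chains, H2-Ab1 (chromosome 17, 34263209 to 34269418), the beta chain of H2-A, was at 55.4 and 62.7 CPM in aged-SP replicates 1 and 4. In young-SP replicates 1, 2 and 4 it was at 79.3, 46.8 and 59.5 CPM. Again both aged-SP libraries fell between the extremes of the young-SP group (log2 fold change -0.067, 95% interval -0.64 to 0.50, edgeR adjusted p = 0.899). The direction turned without young-SP replicate 1 (0.14) and without aged-SP replicate 1 (0.017). H2-Aa (34282744 to 34287827), which encodes the alpha chain of the same pair, varied more. It was at 69.1 and 48.5 CPM in the aged-SP libraries and at 120.5, 40.2 and 66.9 CPM in young-SP replicates 1, 2 and 4. Young-SP replicate 1 alone was far above the rest. The log2 fold change was -0.37 (95% interval -1.53 to 0.79, edgeR adjusted p = 0.706) with that library and 0.12 without it.

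H2-Eb1 (34305877 to 34316199), the beta chain of H2-E, had another order of libraries. It was at 99.7 and 58.1 CPM in aged-SP replicates 1 and 4, and at 102.5, 48.1 and 29.8 CPM in young-SP replicates 1, 2 and 4. The highest value in each group was that of replicate 1, and the lowest was young-SP replicate 4, a library in which H2-Aa and H2-Ab1 were in the middle of the 5. The log2 fold change was 0.39 (95% interval -0.95 to 1.73, edgeR adjusted p = 0.730). It was 1.01 without young-SP replicate 1 (edgeR adjusted p = 0.170) and -0.052 without aged-SP replicate 1. The ratio of the highest to the lowest library was 3.43, larger than in 88.0% of the tested genes.

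The partner of H2-Eb1 in the H2-E molecule is the product of H2-Ea, which the count table lists as the unprocessed pseudogene H2-Ea-ps (chromosome 17, 34342933 to 34344643), because the reference strain C57BL/6 carries a broken copy. Other mouse strains carry a working one. H2-Ea-ps was at 0 and 19 counts in aged-SP replicates 1 and 4, and at 1516, 12 and 932 counts in young-SP replicates 1, 2 and 4. In CPM these were 0 and 1.22, and 94.8, 0.709 and 62.2. Thus 2 young-SP libraries held this transcript at a level above that of H2-Eb1 per length, as given below, while young-SP replicate 2 was as low as the aged-SP libraries. Within the young-SP group the highest library had 134 times the CPM of the lowest. The groups overlapped, the fitted log2 fold change was -6.45 (standard error 2.25), and the adjusted p was 0.222 with edgeR (unadjusted 0.0314) and 0.0926 with DESeq2. In FPKM the ratio of H2-Ea-ps to H2-Eb1 was 1.60 and 3.60 in young-SP replicates 1 and 4, and 0 to 0.0361 in the other 3 libraries. None of the 50-base stretches of its transcripts occurred in another gene (0% of 987). The MHC alleles of the females are not given in the sources used here, and whether they bear on the counts of the 10 members was not tested. H2-Eb2 (34325665 to 34340229), the other gene of this group, was at 10 to 17 counts in each library (log2 fold change -0.12, edgeR adjusted p = 0.896).

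The H2-DM chains were of unequal stability. H2-DMa (34135182 to 34139101), the alpha chain, was at 13.8 and 15.03 CPM in the aged-SP libraries and at 17.3, 12.5 and 15.7 CPM in young-SP replicates 1, 2 and 4. The groups overlapped and the log2 fold change was -0.072 (95% interval -0.53 to 0.39, edgeR adjusted p = 0.864), and 0.020 without young-SP replicate 1. Exons of Brd2 on the opposite strand overlap this gene, and 8.43% of its 50-base stretches occur there.

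H2-DMb1 (34153072 to 34160230) had the smallest p of the 10 genes. Its counts were 67 and 76 in aged-SP replicates 1 and 4, and 227, 57 and 188 in young-SP replicates 1, 2 and 4. In CPM these were 4.05 and 4.86, and 14.2, 3.37 and 12.6. The 2 high libraries were young-SP replicates 1 and 4, the same pair in which H2-Ea-ps was high, and young-SP replicate 2 was the lowest of all 5. The log2 fold change was -1.17 (standard error 0.62, 95% interval -2.72 to 0.38), with an edgeR p of 0.113 before and 0.372 after adjustment. The spread of the gene beyond counting error was 47.0% of its mean (its biological coefficient of variation), the highest of the 10, against 25.1% for all genes in common. Leaving out young-SP replicate 1 gave -0.85 and leaving out young-SP replicate 2 gave -1.59, and in neither fit was the gene called.

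H2-DMb2 (34143307 to 34151553), the second beta chain gene, is adjacent to H2-DMb1 and differed from it in pattern. It was at 6.83 and 5.44 CPM in the aged-SP libraries and at 4.82, 4.97 and 3.27 CPM in young-SP replicates 1, 2 and 4. Both aged-SP libraries were above all young-SP libraries (log2 fold change 0.49, 95% interval -0.18 to 1.16, unadjusted p = 0.119 and edgeR adjusted p = 0.379). Per length, H2-DMb1 was at 3.39 and 4.42 times the level of H2-DMb2 in young-SP replicates 1 and 4, and at 0.683, 1.03 and 0.781 times its level in aged-SP replicates 1 and 4 and young-SP replicate 2. The genes are near copies: 22.7% of the 50-base stretches of H2-DMb1 occur in H2-DMb2, and 25.9% of those of H2-DMb2 occur in other genes, mainly H2-DMb1. Their separate counts are therefore uncertain. With the counts of the pair summed, the libraries held 180 and 161 (aged-SP replicates 1 and 4) and 304, 141 and 237 (young-SP replicates 1, 2 and 4). Young-SP replicates 1 and 4 were still the highest, and the log2 fold change of the sum was -0.44 (standard error 0.36, edgeR adjusted p = 0.544).

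The H2-DO chains were scarce. H2-Oa (34092340 to 34095234), the alpha chain, was covered by only 5 and 9 counts in aged-SP replicates 1 and 4, and by 17, 9 and 16 in young-SP replicates 1, 2 and 4. The higher libraries were once more young-SP replicates 1 and 4, and it was through these that the gene passed the filter on low counts. Its log2 fold change was -1.004 (95% interval -2.35 to 0.34, edgeR adjusted p = 0.376). Exons of BC051537 on the other strand overlap this gene, and 15.5% of its 50-base stretches occur there, which at such counts leaves the source of each read uncertain. H2-Ob (34238903 to 34245907), the beta chain, was at 3.81 and 4.60 CPM in the aged-SP libraries and at 2.44, 3.67 and 2.87 CPM in young-SP replicates 1, 2 and 4. As with H2-DMb2, both aged-SP libraries were above all young-SP libraries, although aged-SP replicate 1 and young-SP replicate 2 were close (log2 fold change 0.49, 95% interval -0.19 to 1.16, edgeR adjusted p = 0.385). H2-Ob stood at 5.25 and 3.33 times H2-Oa per length in the aged-SP libraries, and at 0.956, 2.87 and 1.12 times in young-SP replicates 1, 2 and 4.

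Ciita (chromosome 16, 10488178 to 10527564), the transactivator gene, was at 10.9 and 13.3 CPM in the aged-SP libraries. In young-SP replicates 1, 2 and 4 it was at 11.2, 11.6 and 7.68 CPM. The groups overlapped (log2 fold change 0.25, 95% interval -0.35 to 0.84, edgeR adjusted p = 0.610). Without young-SP replicate 4, the lowest library, it was 0.074, and without aged-SP replicate 4 it was 0.096. The library with the most H2-Aa, H2-Ab1, H2-Eb1 and Cd74, young-SP replicate 1, was in the middle of the 5 for Ciita. Its exons overlap Dexi on the other strand, with 1.46% of its 50-base stretches in that gene.

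Some pairs of members kept their proportion from library to library and others did not. In FPKM, Cd74 was at 5.18 to 6.41 times H2-Ab1, and H2-DMa at 0.218 to 0.267 times H2-Ab1, in all 5 libraries. H2-Aa was at 0.676 to 1.33 times H2-Ab1, and H2-Eb1 at 0.694 (young-SP replicate 4) to 2.49 times (aged-SP replicate 1). The ratio of H2-DMb1 to H2-DMa was 0.906 and 0.884 in young-SP replicates 1 and 4 and 0.297 to 0.357 in the other 3 libraries. The ratios that moved most thus involved H2-Eb1, H2-DMb1 and the H2-DO chains, and none of them separated the groups except that of H2-Ob to H2-Oa, in which both aged-SP libraries were above all young-SP libraries. That gap was narrow, 3.33 in aged-SP replicate 4 against 2.87 in young-SP replicate 2, with 9 H2-Oa counts in each. Fully separate CPM values were seen in 38.8% of all tested genes. None of these ratios was tested.

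**Figure D3:**
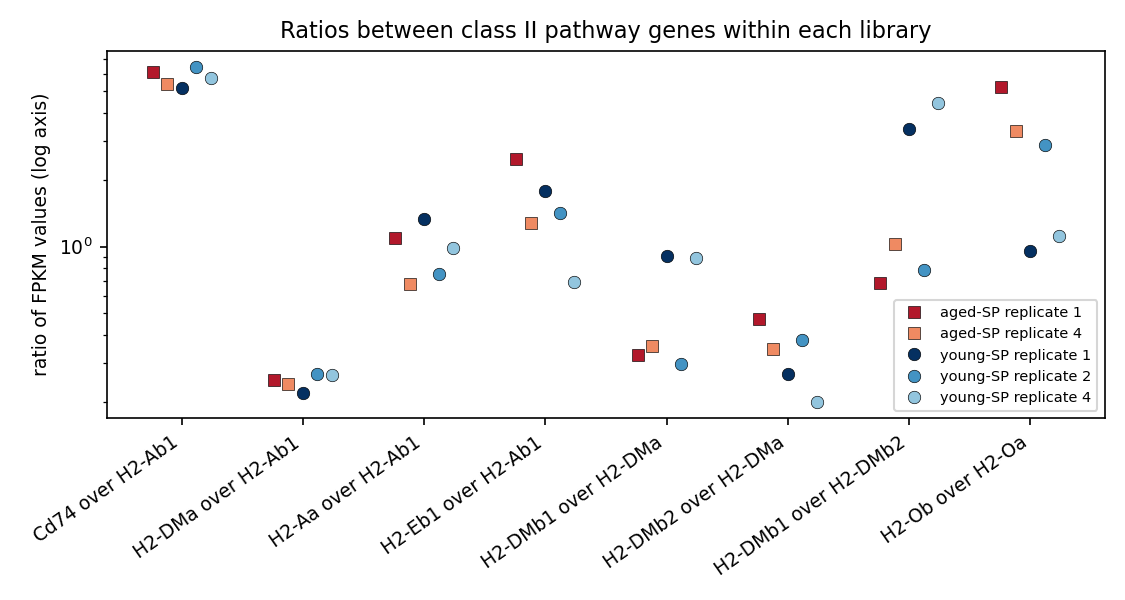
Ratio of FPKM values (log axis) for 8 pairs of genes within each library, squares for aged-SP and circles for young-SP. Cd74 over H2-Ab1 stays between 5.18 and 6.41, while H2-DMb1 over H2-DMb2 runs from 0.683 to 4.42 with young-SP replicates 1 and 4 on top.

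The genes on chromosome 17 lie within 252 kb, from H2-Oa to H2-Ea-ps (34092340 to 34344643), with 16 tested genes in this stretch. None of the 16 was called by edgeR, and 1, H2-Ea-ps, had an unadjusted p under 0.05. Among the class I processing genes that lie between the class II genes, Psmb8, a subunit of the immunoproteasome, was at 53.3 CPM in young-SP replicate 1 and at 20.3 to 31.7 CPM elsewhere. Tap1, of the peptide transporter, was at 82.9 CPM there against 36.5 to 69.3 CPM. The list of neighbours held these genes, Tap2, Psmb9, Brd2 and Btnl2, which lies just past H2-Ea-ps. Of the 6, 0 were called by edgeR or DESeq2, with 3 above and 3 below 0 in log2 fold change. Tap2 had the smallest p (log2 fold change 0.39, edgeR adjusted p = 0.343), and Brd2, a bromodomain gene with no role in presentation, was the most abundant and differed little between libraries (log2 fold change 0.080, edgeR adjusted p = 0.631). Young-SP replicates 1 and 4 were the 2 highest libraries in H2-Oa, H2-DMa, H2-DMb1 and H2-Ea-ps, although in H2-DMa by a small margin (15.7 against 15.03 CPM), and in no other tested gene of the stretch.

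**Figure D4:**
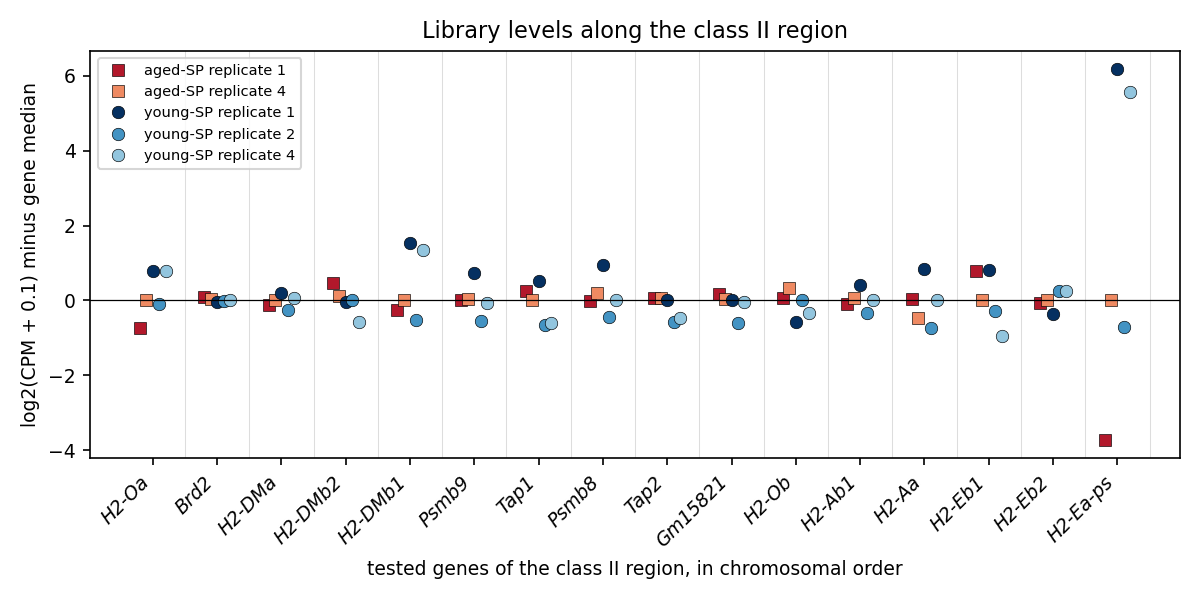
Level of each of the 16 tested genes of the class II region in each library, as log2(CPM + 0.1) minus the median of the 5 libraries for that gene, genes in chromosomal order. Young-SP replicates 1 and 4 are both at the top for H2-Oa, H2-DMb1, H2-Ea-ps and, by a small margin, H2-DMa.

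Of the 10 members, young-SP replicate 1 held the highest CPM in 6 and young-SP replicate 2 the lowest in 5. The mean centred profile of H2-Aa, H2-Ab1, H2-Eb1 and Cd74 was 0.58 above the mean of the 5 libraries in young-SP replicate 1 on the log2 scale, 0.17 above it in aged-SP replicate 1, and -0.11, -0.39 and -0.25 in aged-SP replicate 4 and young-SP replicates 2 and 4. This mean does not describe its 4 genes equally: the root mean square distance from it was 0.198 for H2-Ab1, 0.222 for Cd74, 0.273 for H2-Aa and 0.433 for H2-Eb1, the last being farther than the median of all candidates (0.383). Over these 5 libraries, the genes with the nearest profile among 10997 with at least 10 CPM on average included Ube2l6, Tlr3, Casp1 and Ifitm3. Their root mean square distances were 0.0512, 0.0723, 0.0849 and 0.0899, and they were chosen for being small. Ube2l6, an enzyme of ISG15 conjugation, was at 60.0 CPM in young-SP replicate 1 and at 29.1 to 40.7 CPM in the others. Ifitm3, an interferon-induced membrane protein, was at 713.7 CPM there and at 404.9 to 512.6 CPM in the others. None of these 4 was called between the groups, with edgeR adjusted p between 0.905 and 0.976.

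The other genes of the pathway were taken from a fixed list. Among 11 genes of antigen processing and class II turnover, edgeR called 0 and DESeq2 1, Ctsd. Over all genes with an adjusted p DESeq2 called 3.74%. An unadjusted p under 0.05 was found for 3 genes above and 1 below 0 in log2 fold change, against 9.62% and 9.36% of all tested genes. The median log2 fold change of the list was 0.46. Ctsd, which encodes the endosomal protease cathepsin D and was the most abundant of the list, was at 418 and 438 CPM in the aged-SP libraries and at 889, 860.5 and 1181 CPM in young-SP replicates 1, 2 and 4. It lay lower in both aged-SP libraries (log2 fold change -1.19, standard error 0.17). The edgeR adjusted p was 0.0734, short of the threshold, and that of DESeq2 was 5.02e-08, past it. Ctsz, the gene of cathepsin Z, was at 188.9 and 223.7 CPM in the aged-SP libraries and at 126 to 168 CPM in the young-SP libraries (log2 fold change 0.51, edgeR adjusted p = 0.177). Ctss, whose product cathepsin S makes the last cuts in the invariant chain, was at 167 and 233 CPM in the aged-SP group and at 238, 99.0 and 100.1 CPM in the young-SP group, with overlap between the groups (edgeR adjusted p = 0.607).

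Among 16 tested genes of the X and Y box factors and their inducers, 0 were called by edgeR or DESeq2, and the median log2 fold change was 0.15. An unadjusted edgeR p under 0.05 was found for 3 above and 1 below 0, against 9.62% and 9.36% of all tested genes. Rfxap, a subunit of the RFX complex, was at 23.5 and 23.6 CPM in the aged-SP libraries and 18.01, 18.5 and 18.1 CPM in the young-SP libraries (log2 fold change 0.37, edgeR adjusted p = 0.177). Nfyc, a subunit of NF-Y, was at 42.0 and 38.3 CPM against 50.9, 54.1 and 51.2 CPM (log2 fold change -0.37, edgeR adjusted p = 0.133, DESeq2 0.0329). Its fold change was short of the threshold for a call. These 2 subunits, named for having the smallest p of the list, lay on opposite sides, and the groups were separate in both. Groups were separate in 8 of the 16 tested genes of the list, these 2 included, against 38.8% of all tested genes. Jak2, the most abundant of the list and a kinase of the interferon-gamma receptor, differed by -0.27 on the log2 scale (edgeR adjusted p = 0.282). Ifng itself, the main inducer of Ciita outside professional presenting cells, was at 0.118 to 0.375 CPM and was not tested.

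Markers of the cells that carry class II molecules are given beside these levels, and their part in them was not tested. For the leukocyte, macrophage and dendritic cell lists the 0 calls below hold for edgeR and DESeq2. Over all genes edgeR called 0.147% of those tested and DESeq2 3.74% of those with an adjusted p. Of 5 leukocyte genes 0 were called (1 above and 4 below 0), and their summed level was 297 and 316 CPM in the aged-SP libraries and 396, 281 and 293 CPM in young-SP replicates 1, 2 and 4. It was highest in young-SP replicate 1, as were the classical chains and Cd74. Coro1a, Cd52 and Cd53 had edgeR adjusted p of 0.476, 0.617 and 0.904. The 11 macrophage genes, led by Lyz2 (edgeR adjusted p = 0.623), summed to 1355 and 2279 CPM in the aged-SP libraries and 2097, 1060 and 1480.3 CPM in the young-SP libraries, with 0 called. In that list 7 genes were above and 4 below 0 in log2 fold change. The smallest p were those of Cd68 (log2 fold change 0.75, edgeR adjusted p = 0.328) and Mertk (0.25, 0.323). The 10 dendritic cell genes summed to between 80.4 and 98.4 CPM in all 5 libraries, with 0 called. In log2 fold change 3 of them were above and 7 below 0, with a median of -0.089. An unadjusted edgeR p under 0.05 was found for 1, Batf3 (log2 fold change 0.71, edgeR adjusted p = 0.207), against 19.0% of all tested genes. Itgax, the integrin CD11c, differed by 0.49 on the log2 scale (edgeR adjusted p = 0.266) and Clec10a, the most abundant, by -0.30 (0.501). Their highest sum was that of young-SP replicate 2, the library with the lowest H2-Aa and H2-Ab1. Of 8 B cell genes only 4 could be tested, and edgeR called 0 and DESeq2 1, Blk. The defining markers Ms4a1 and Pax5 were at or below 0.767 CPM in every library. Blk, a kinase gene of that list, was at 0.725 and 0.704 CPM in the aged-SP libraries and at 4.50, 4.79 and 2.54 CPM in the young-SP libraries (edgeR adjusted p = 0.0767, DESeq2 0.000241). Fcer2a had only 23 and 13 counts in aged-SP replicates 1 and 4, and 7, 3 and 0 in young-SP replicates 1, 2 and 4, and passed the filter through the aged-SP group (edgeR adjusted p = 0.243). Cd79b, the most abundant, differed by 0.032 on the log2 scale (edgeR adjusted p = 0.978). Of the 8 T and NK cell genes edgeR called 0 and DESeq2 1, Cd3g. By edgeR 7 were below 0 in log2 fold change, and 4, all lower in aged-SP, had an unadjusted p under 0.05, against 9.36% of all tested genes. Nkg7, a granule protein gene of cytotoxic cells, was the one of smallest p (log2 fold change -0.92, edgeR adjusted p = 0.125, DESeq2 0.0183). Cd3g differed by -1.11 (edgeR adjusted p = 0.166, DESeq2 0.0405) and Ncr1 by -0.94 (0.221). The 7 epithelial genes, which attest to the tissue, summed to 933 to 1655 CPM, and edgeR called 0 and DESeq2 1, Cldn3. Krt8 was at a log2 fold change of -0.15 (edgeR adjusted p = 0.838) and Krt18 at 0.38 (0.178), and Cldn3, a tight junction gene, was lower in both aged-SP libraries (log2 fold change -1.03, edgeR adjusted p = 0.0552, DESeq2 1.2e-13).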

How the data were processed

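Whole-uterus RNA was sequenced in 5 libraries. Group membership follows the labels, and the table's columns were tied to samples through the headings of each sample's own file. 0 columns of per-sample values were left unused. After read filtering and alignment with HISAT2 (2.1.0), the authors deposited unnormalized counts per gene. HTSeq 0.6.0 and Bowtie2 2.2.3 are named in the submitters' processing notes. The deposited FPKM values equal these counts divided by a gene length and the library total. The deposited columns of the authors' own comparison (fold changes, p-values and means) were not used. The positions of 26998 of the 28666 listed genes match GENCODE M21 (GRCm38).

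Genes were kept with filterByExpr (17013), scaled with TMM and compared with edgeR 4.0.16 (glmQLFit, glmQLFTest). DESeq2 1.42.0 and limma 3.58.1 (voom) were run in R 4.3.3 as alternatives on the same filtered genes, and Python 3.11.15 was used for descriptions. Standard errors are the log2 fold change divided by the root of F, and 95% intervals use the t distribution with the fitted degrees of freedom. Shared sequence is the share of 50-base stretches of a gene's transcripts found in other transcripts of GENCODE M21. Each tool was first checked on simulated counts. The members and the lists were chosen with earlier results of these data known. Named genes were the members, the 2 genes of smallest p and the most abundant gene of each list, and the 5 nearest profiles, except that some items are not reported here. Ctss, Ifng, Tap1, Psmb8, Psmb9, Btnl2 and the B cell markers were named after their values were seen.

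Alternatives were other scalings, other tools, other filters, a replicate block, the adjusted p alone, and each library left out in turn. Summing the counts of H2-DMb1 and H2-DMb2 was added after seeing the data. Count errors cover counting only, since the files hold no molecular identifiers.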

Additional observations from a re-analysis of the deposited data

How the results depend on the processing

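In the 13 alternative fits, and with the adjusted p alone, 0 of the 10 genes were called. The number of all genes called, 25, was 611 with the DESeq2 Wald test, 203 without a filter on low counts and 2 with the replicate block, and between 1 and 578 with a library left out (1 without aged-SP replicate 1, 49 without aged-SP replicate 4, 578, 3 and 2 without young-SP replicates 1, 2 and 4); the cause was not tested. Replicate numbers 1 and 4 occur in both groups, and the deviations of same-numbered libraries correlated at 0.152 and 0.136 over genes; nothing in the labels pairs them, so the block is given here only. With a library left out, the median log2 fold change of the members lay between -0.18 and 0.14 (over 9 members where H2-Oa could not be tested). The log2 fold change changed sign in 6 of 126 refits of single members, all with a library left out, and ranged over these from -0.16 to 0.055 for Cd74, -0.67 to 0.12 for H2-Aa, -0.24 to 0.14 for H2-Ab1, -0.20 to 0.020 for H2-DMa and -0.052 to 1.01 for H2-Eb1. H2-DMb1 ranged from -1.59 to -0.85 and H2-Oa from -1.53 to -0.62, and H2-Oa was not tested without young-SP replicate 1 or 4 or where every library had to hold 10 counts. Where 1 aged-SP library remained, it was assumed to vary like the young-SP group. The adjusted p of H2-DMb1 lay between 0.171 and 0.677 over the alternatives. Counts of 5 to 17 in H2-Oa limit what can be said of it.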
